A study of Mus musculus with 39 samples.

Results

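Col9a3 (ENSMUSG00000027570) and Hoga1 (ENSMUSG00000025176) are 2 of the 32285 genes counted in a pair of single-cell RNA libraries of mouse testis. They were chosen because their levels were lower in the library from males that lost Kdm6a in germ cells than in the control library. That contrast therefore describes how they were picked, and carries no test. The control library came from Kdm6a fl/y males without Cre and the conditional knockout (cKO) library from Kdm6a fl/y males with Ddx4-Cre, so both genotypes carry the floxed allele. Kdm6a (also called Utx) lies on the X chromosome and encodes an enzyme that removes methyl groups from histone H3 at lysine 27. The Ddx4 promoter drives the recombinase in germ cells and not in the somatic cells of the testis. Whole testes were dissociated with collagenase and trypsin and captured on the 10x Chromium 3' platform, with 1 library per genotype, and the labels give neither ages nor the number of animals. Open chromatin (ATAC-seq) and the histone mark H3K27me3 (CUT&Tag) were profiled in sorted cKIT+ spermatogonia of the same 2 genotypes, with 2 control and 3 cKO libraries for each assay.

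Col9a3 encodes a chain of type IX collagen, in which the products of Col9a1, Col9a2 and Col9a3 wind into one triple helix that is interrupted by non-collagenous stretches. This collagen sits on the surface of type II collagen fibrils in cartilage. Hoga1 encodes a mitochondrial aldolase that cleaves 4-hydroxy-2-oxoglutarate into pyruvate and glyoxylate, the last step in the breakdown of hydroxyproline, an amino acid that comes largely from collagen. Loss of its human counterpart causes a form of primary hyperoxaluria.

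Both genes lie on autosomes in the mouse build GRCm38.p6 (mm10). Col9a3 spans chr2:180598102-180622192, and Hoga1 spans chr19:42045559-42071689. The RefSeq promoter table for GRCm38.p6 matched 1 of the 2 genes, Hoga1, on the plus strand with a start at 42045870. The 300 bases around that start, chr19:42045620-42045919, are shown because open chromatin was found there in cKIT+ spermatogonia. The capitals mark the 60 bases of this window, chr19:42045620-42045679, that lie inside all 4 ATAC-seq peaks at the gene's lower end. These peaks also extend before the window, and all of them end before the start at 42045870.
Hoga1 promoter: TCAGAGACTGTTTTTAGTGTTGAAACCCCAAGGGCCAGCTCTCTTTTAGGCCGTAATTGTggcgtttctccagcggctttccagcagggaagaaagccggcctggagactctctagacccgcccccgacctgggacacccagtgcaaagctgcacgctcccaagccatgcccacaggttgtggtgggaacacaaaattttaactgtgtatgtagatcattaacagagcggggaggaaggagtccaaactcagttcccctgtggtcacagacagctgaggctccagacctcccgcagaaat
The window has a GC content of 54.3%, against a median of 52.7% over the table's promoters. On either strand it holds 1 GC box (GGGCGG), 132 bases before the start, and 35.7% of the 32851 promoters of that length hold one. It holds 1 E-box (CANNTG), as do 72.3% of promoters at least once, and 4 matches to the MYB core (AACNG), a motif found in 80.3%. It holds no match to the CRE (TGACGTCA, in 1.79% of promoters), to its shorter form (TGACG, 20.8%), to a TATA box (TATAAA, 13.6%) or to CCAAT (37.4%). TGACG lies within TGACGTCA, so those counts overlap.

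The control library held 229882646 unique molecular identifiers (UMIs, each one captured RNA molecule) and the cKO library 172368722. Barcodes with at least 3000 UMIs numbered 11252 and 8520, with medians of 8410.5 and 8499 UMIs. Of these barcodes, 30 occurred in both libraries. Kdm6a, the check of the labels, had 304 and 75 UMIs in them, 2.29 against 0.757 CPM (UMIs per 1000000 UMIs). In the early spermatocyte gate it had 94 and 4 UMIs, and in the Sertoli gate 15 and 21. In the spermatogonial gate it had 7 and 6, a log2 ratio of -0.55 with an interval of -2.40 to 1.25. In shallower barcodes the difference was smaller or reversed, with 4.53 and 4.45 CPM from 2000 to just under 3000 UMIs, and 31 and 48 UMIs in barcodes with fewer than 300. The single library per genotype gives no replicate error. The 95% intervals below are exact Poisson or binomial intervals that cover counting error only, and differences between animals cannot be told apart from differences between genotypes.

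Col9a3 was lower in the cKO library. It had 1040 UMIs in the control library and 235 in the cKO library. These are 7.83 CPM (7.36 to 8.32) and 2.37 CPM (2.08 to 2.70), a log2 ratio of cKO over control of -1.72 (-1.93 to -1.52). A Col9a3 UMI was found in 8.45% of control barcodes and 2.61% of cKO barcodes, with at most 4 and 3 UMIs in any barcode.

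Hoga1 was lower by a similar ratio. It had 1523 UMIs in the control library and 380 in the cKO library, 11.5 CPM (10.9 to 12.1) against 3.84 CPM (3.46 to 4.24). The log2 ratio was -1.58 (-1.75 to -1.42). A Hoga1 UMI was found in 12.0% of control barcodes and 4.21% of cKO barcodes. With each barcode thinned to 3000 UMIs, the share with Hoga1 was 4.35% against 1.37%, and the share with Col9a3 was 2.39% against 0.739%. UMIs of both genes occurred together in 131 control barcodes and 19 cKO barcodes. The overlap that the separate shares and the depth of the barcodes alone would give was not computed, so nothing is read from these counts.

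Among all genes, few differed this much between the libraries. Of 10261 genes with a mean of at least 5 CPM, 13 were at least 2-fold lower in the cKO library with 1 CPM added to each level, which is 0.127% of them, and Col9a3 and Hoga1 are 2 of the 13. Only 1 gene (0.00975%) was 2-fold higher, which makes 14 genes (0.136%) in either direction. On that scale Col9a3 had the third lowest log2 ratio, -1.39, and Hoga1 the fourth lowest, -1.37. The linker histone gene Hist1h1a was just below them at -1.56, and the linker histone gene Hist1h1e just above at -1.26. Since the genes were chosen on this contrast, nothing is read from that count. Col9a3, with a mean of 5.10 CPM, lies just over the minimum level for this count.

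The germ-cell stages were gated by the highest of 10 marker scores per barcode, and 7 gates held at least 50 barcodes in both libraries. The late spermatocyte gate held 2558 control and 2104 cKO barcodes, the round spermatid gate 1406 and 1596, and the elongating spermatid gate 6652 and 4320. Every listed marker of these 3 gates was highest in its own gate, which the gating on those markers largely fixes. In the spermatogonial gate 7 of the 10 markers were highest there. Elongating spermatids made up 59.1% of control and 50.7% of cKO barcodes, and round spermatids 12.5% and 18.7%. Weighting the gates alike in both libraries gave log2 ratios of -1.65 for Col9a3 and -1.52 for Hoga1.

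In the control library, late spermatocytes held 37.7% of the Col9a3 UMIs and 38.3% of all UMIs, round spermatids 11.8% and 18.1%, and elongating spermatids 49.0% and 40.6%. In the control library its level was highest in the elongating spermatid gate, at 9.47 CPM (510 UMIs). The late spermatocyte gate followed at 7.71 CPM (392 UMIs). Elongating exceeded late by 0.30 on the log2 scale (0.10 to 0.49). The round spermatid gate was lower, at 5.12 CPM (123 UMIs), and its log2 difference from late spermatocytes was -0.59 (-0.89 to -0.29). The spermatogonial gate at 5.51 CPM rests on 3 UMIs and the early spermatocyte gate at 5.42 CPM on 9, so their places in the order are not resolved. The Sertoli gate gave 3 UMIs (2.86 CPM), and the control Leydig gate gave 0 UMIs in 90 barcodes. Taking 3 counts as the limit that a count of 0 allows, up to 3.33% of such barcodes could carry a UMI, which says nothing of how many cells express the gene.

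The ratio of Col9a3 between the libraries differed by stage. It was furthest from 0 in late spermatocytes, where 58 cKO UMIs gave 1.61 CPM and a log2 ratio of -2.26 (-2.69 to -1.86). Round spermatids had 43 cKO UMIs, 1.65 CPM and a log2 ratio of -1.63 (-2.17 to -1.12). Elongating spermatids had 127 cKO UMIs, 3.76 CPM and a log2 ratio of -1.33 (-1.62 to -1.05). The intervals of late and elongating stages do not overlap, though this difference was not tested. Early spermatocytes held 2 cKO UMIs, spermatogonia 2, the Sertoli gate 2 and the Leydig gate 1, too few to compare.

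Hoga1 had another course through the stages. In the control library it was highest in elongating spermatids, at 21.9 CPM (1180 UMIs), and these barcodes held 77.5% of all its UMIs against 40.6% of all UMIs of the library. Round spermatids followed at 10.4 CPM (250 UMIs), 1.07 lower on the log2 scale than elongating spermatids (0.88 to 1.28). Late spermatocytes had 1.55 CPM (79 UMIs), 2.74 below round spermatids (2.37 to 3.13). The gene 4933411K16Rik, which lies inside Hoga1, had the same order of stages in the control library. It had 73.8 CPM in late spermatocytes, 421 CPM in round and 1236 CPM in elongating spermatids. Whether its reads add to the Hoga1 counts was not tested. The Sertoli gate held 7 UMIs (6.67 CPM), and its interval of 2.68 to 13.7 CPM overlaps that of round spermatids. These Sertoli-gated barcodes also held spermatid RNA, with Prm1 at 5863 CPM in the control and 5690 CPM in the cKO library, against 2856 and 2829 CPM in the Leydig gate, and its part in their Hoga1 level was not tested. The early spermatocyte gate held 5 UMIs, the Leydig gate 1, and the spermatogonial gate 0 in 65 barcodes, where the same limit of 3 counts allows up to 4.62% of barcodes with a UMI.

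In the cKO library the order of the 3 well filled stages was the same for Hoga1 at a lower level. Elongating spermatids had 242 UMIs, 7.17 CPM and a log2 ratio to control of -1.61 (-1.82 to -1.41). Round spermatids had 93 UMIs, 3.57 CPM and a log2 ratio of -1.54 (-1.90 to -1.19). Late spermatocytes had 33 UMIs, 0.914 CPM and a log2 ratio of -0.76 (-1.40 to -0.16). Counted as before over genes with a mean of at least 5 CPM in a gate, 26 of 8821 genes (0.295%) were at least 2-fold lower in elongating spermatids, Col9a3 and Hoga1 among them. In round spermatids 17 of 9240 (0.184%) were, including Hoga1, while Col9a3 was under the minimum. In late spermatocytes 10 of 9450 (0.106%) were, and both genes were under the minimum. The late spermatocyte levels of Hoga1 are near those that free RNA would give at the share estimated below. That share gives 1.23 CPM in the control and 1.13 CPM in the cKO library. It came from Leydig-gated barcodes, and Prm1 was lower in late spermatocytes, at 2165 and 1796 CPM, so it may be too high here. The part of free RNA in the Hoga1 ratio of that stage was not tested, so little can be read from it. In the Sertoli gate Hoga1 had 10 cKO UMIs, 9.20 CPM, with a log2 ratio of 0.47 (-1.08 to 2.10) that spans both directions.

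**Figure D1:**
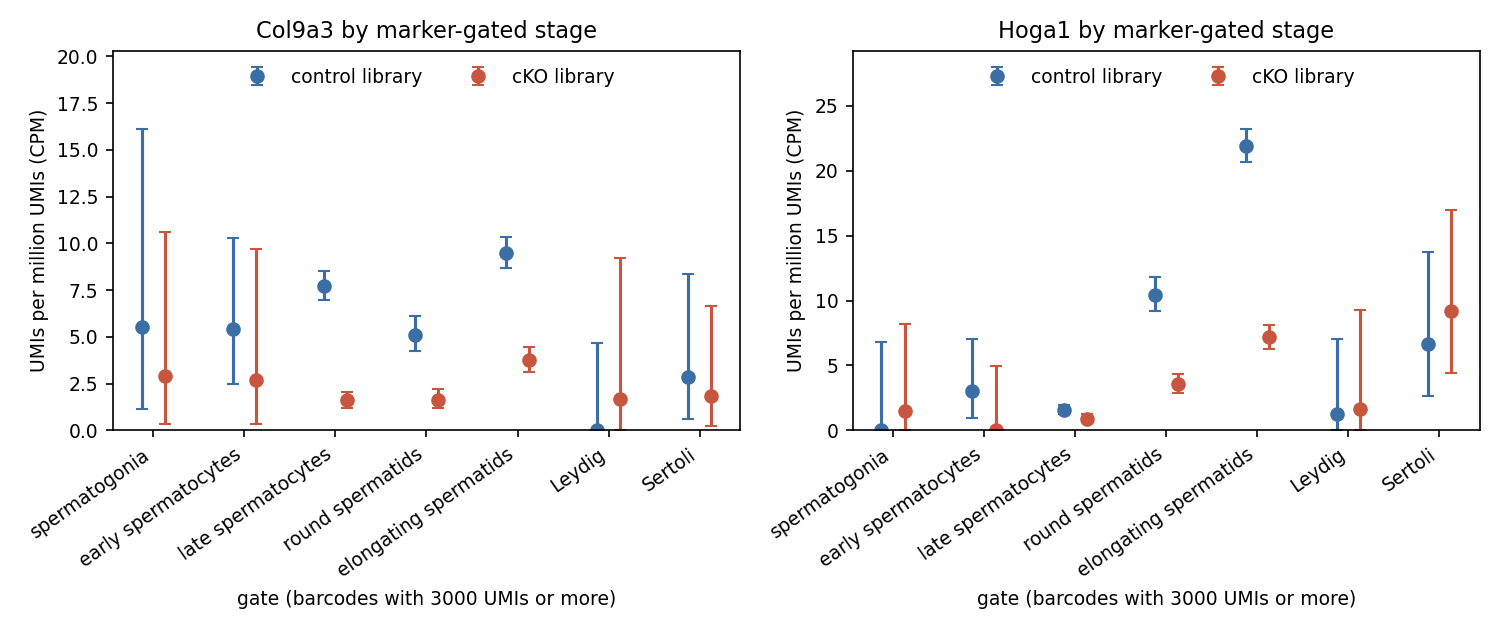
Levels of Col9a3 (left) and Hoga1 (right) in CPM within each marker gate, for the control library (blue) and the cKO library (red). Bars are exact 95% Poisson intervals for counting error, and the libraries' intervals are apart in the round and elongating spermatid gates for both genes, and in late spermatocytes for Col9a3.

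Within the round and elongating spermatid gates together, barcodes were ordered by the share of their UMIs that came from the elongating-spermatid marker list. Control levels of Hoga1 were 8.45 CPM in the range of 0 to 2% of UMIs and 26.9 CPM at 20% or more. In the cKO library the same ends stood at 3.23 and 8.36 CPM, and the log2 ratio lay between -2.01 and -1.28 in all 6 ranges, with every interval below 0. Control levels of Col9a3 were highest in the middle of this order, at 14.3 CPM in the range of 5 to 10%, and 8.47 CPM at its end. In the cKO library Col9a3 was highest at 7.72 CPM, in the range of 10 to 15%. There the log2 ratio was -0.51 with an interval of -1.27 to 0.20, and in the range of 2 to 5% it was -0.74 (-1.63 to 0.07). At the ends of the order it was -2.18 (0 to 2%) and -1.73 (20% or more). In the 4 middle ranges the Col9a3 log2 ratio was -1.22 to -0.51. Its intervals overlap between some middle ranges and the ends, and the difference between them was not tested. Barcodes that may hold several cells were not left out of these ranges. Piwil1, a marker of the late spermatocyte gate, stood at 65.1 CPM in control elongating and 31.4 CPM in control round spermatids. Whether mixed barcodes shape the Col9a3 levels in these ranges was not tested.

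**Figure D2:**
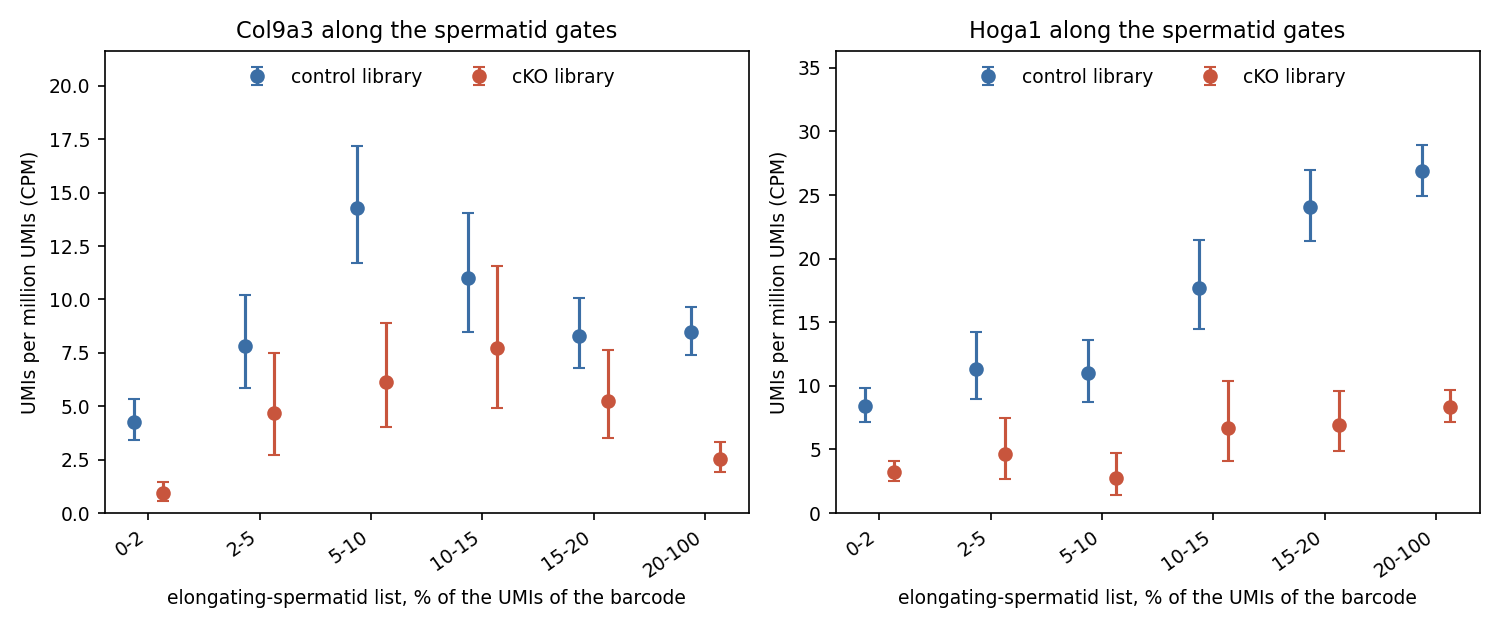
Levels of Col9a3 (left) and Hoga1 (right) across barcodes of the spermatid gates, grouped by the percentage of their UMIs that belong to the elongating-spermatid marker list, with exact 95% Poisson intervals. Control Hoga1 climbs to 26.9 CPM in the last group, while control Col9a3 is highest, at 14.3 CPM, in the group of 5 to 10%.

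Barcodes of lower depth, which include small cells, damaged cells and droplets with free RNA, were kept apart. With at least 300 and fewer than 2000 UMIs there were 58524 control and 66902 cKO barcodes. Col9a3 had 954 and 203 UMIs in them, 12.2 and 3.35 CPM, a log2 ratio of -1.87 (-2.09 to -1.65). Hoga1 had 776 and 215 UMIs, 9.93 and 3.55 CPM, a log2 ratio of -1.48 (-1.71 to -1.26). Both genes were therefore lower in the cKO library by about the same ratio in these barcodes as in deeper ones. From 2000 to just under 3000 UMIs, the log2 ratio was -2.72 for Col9a3 (148 and 11 UMIs) and -1.14 for Hoga1 (171 and 38 UMIs). In the 4 ranges above 3000 UMIs it lay between -2.12 and -1.63 for Col9a3 and between -1.82 and -1.25 for Hoga1.

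Barcodes with fewer than 300 UMIs hold mostly free RNA. Col9a3 had 48 and 20 UMIs there, 6.53 CPM (4.82 to 8.66) in the control and 2.83 CPM (1.73 to 4.37) in the cKO library. Hoga1 had 45 and 35 UMIs, 6.12 CPM (4.47 to 8.20) and 4.95 CPM (3.45 to 6.89), and its log2 ratio of -0.31 has an interval that includes 0 (-0.99 to 0.36). As point values, the cKO levels of both genes in late spermatocytes and round spermatids are below those of the library's free RNA. The same holds for control Hoga1 in late spermatocytes and control Col9a3 in round spermatids. As a guide to how much free RNA reached cells, Prm1, the protamine gene of elongating spermatids, stood at 2856 CPM in control and 2829 CPM in cKO Leydig-gated barcodes. That is 20.1% and 22.8% of its level in the barcodes under 300 UMIs. In Leydig-gated barcodes (median 8143.5 and 6592 UMIs), a Col9a3 UMI was found in 0 of 90 and 1 of 88 (1.14%), and a Hoga1 UMI in 1 of each (1.11% and 1.14%). By comparison, Col9a3 was found in 13.8% of control and 2.71% of cKO late spermatocytes (median 17148.5 and 14021.5 UMIs), and Hoga1 in 15.7% and 5.30% of elongating spermatids (median 6241 and 6213.5 UMIs). The shares in Leydig-gated barcodes rest on 0 or 1 UMI each, with intervals that reach 6.17% in the cKO library, so they set no close limit for the cKO shares. At the share of free RNA found with Prm1, free RNA would give 0.647 CPM of Col9a3 and 1.13 CPM of Hoga1 in the cKO library. Col9a3 in cKO late spermatocytes, at 1.61 CPM (1.22 to 2.08), is above its value. Hoga1 in cKO elongating spermatids, at 7.17 CPM (6.30 to 8.13), is too, while Hoga1 in cKO late spermatocytes, at 0.914 CPM (0.629 to 1.28), is not. Prm1 was lower in late spermatocytes than in the Leydig gate, at 2165 CPM in the control and 1796 CPM in the cKO library. The Leydig share may therefore be too high for late spermatocytes.

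**Figure D3:**
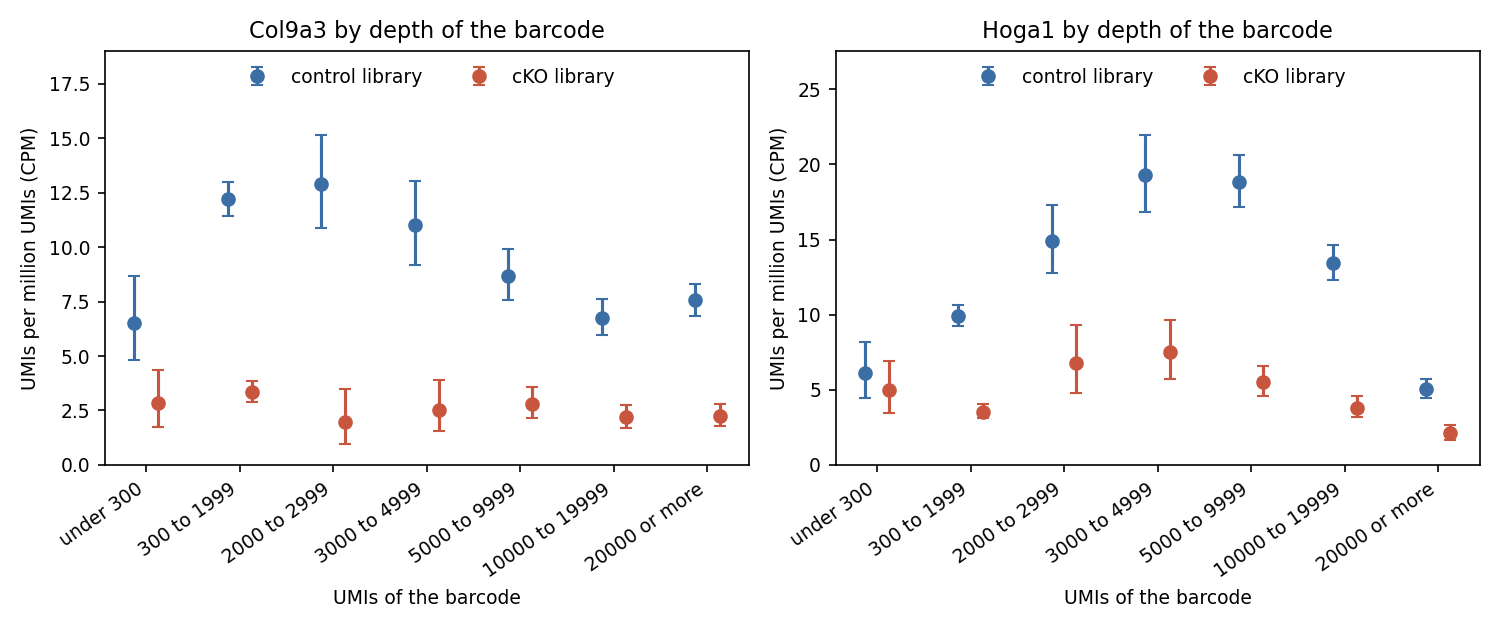
Levels of Col9a3 (left) and Hoga1 (right) by the number of UMIs of the barcode, in CPM with exact 95% Poisson intervals, for the control library (blue) and the cKO library (red). The cKO points lie below the control points in every range, and the intervals overlap only for Hoga1 under 300 UMIs, where 45 and 35 UMIs were counted.

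The neighbours of the genes did not share these ratios. Tcfl5, a transcription factor gene of the germ line, overlaps Col9a3 by 237 bases and stood at 402 CPM in the control and 318 CPM in the cKO library, a log2 ratio of -0.34 (-0.36 to -0.32). On the other side, Ogfr, the opioid growth factor receptor gene, had 10.6 and 10.9 CPM. Mrgbp had a log2 ratio of -0.28, Dido1 of -0.36 and Gid8 of -0.11. At Hoga1, 4933411K16Rik lies wholly inside the gene (1401 bases) and had 611 and 619 CPM, a log2 ratio of 0.02. Of the other measured neighbours, Exosc1 (0.01), Ubtd1 (0.01) and Morn4 (-0.06) were near 0, Mms19 stood at -0.25, Pi4k2a at -0.12 and Avpi1 at 0.25. Of the 12 neighbours at 5 CPM or more, 0 were past 2-fold, beside 0.136% of all genes, so the count itself says little. How reads in the shared bases were counted was not tested, so the Col9a3 and Hoga1 levels are uncertain to the extent that reads fell there.

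**Figure D4:**
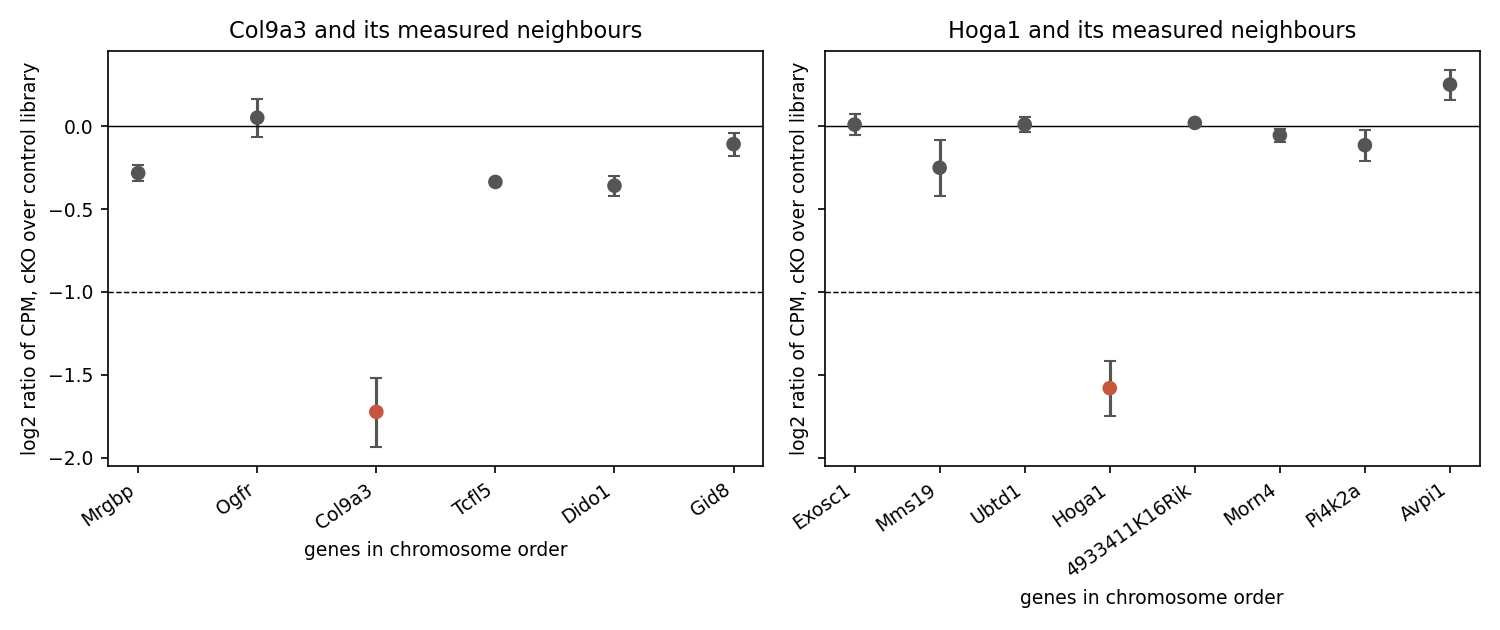
log2 ratio of CPM (cKO over control library, barcodes with 3000 UMIs or more) for Col9a3 (left) and Hoga1 (right) in red and for their neighbours at 5 CPM or more in grey, in chromosome order. Bars are 95% counting intervals and the dashed line marks 2-fold lower. The neighbours lie between -0.36 and 0.25, while the 2 genes lie at -1.72 and -1.58.

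Of the partner chains of Col9a3, Col9a1 differed less between the libraries. It had 426 UMIs in the control and 276 in the cKO library, 3.21 and 2.79 CPM, with a log2 ratio of -0.20 whose interval reaches 0.02. Most of its UMIs came from late spermatocytes, 260 and 156, where its log2 ratio was -0.24 (-0.54 to 0.05). Col9a2 had 2 UMIs in each library, too few to say whether it differed. The other collagens of this kind at 5 CPM or more were Col16a1, Col20a1 and Col22a1, none past 2-fold. Their median log2 ratio was -0.10 on the scale with 1 CPM added, against -0.01 for all genes tested. Of the cartilage partners of type IX collagen, Col2a1, the chain of the fibril it coats, and Comp were measured well enough, and neither was past 2-fold. Among the listed genes of collagen modification, 0 of the 4 tested were past 2-fold, where 0.136% of all genes were, so little can be read from that count. Their median log2 ratio was 0.16 with 1 CPM added. Without that addition the highest was that of P3h3, at 0.52 (0.35 to 0.69). Loxl1 stood at 0.43 and Crtap at -0.05, and P4hb was lowest at -0.43 (-0.53 to -0.34). Serpinh1, the collagen chaperone gene, was under the minimum level, with 142 UMIs in the control and 46 in the cKO library. Its log2 ratio was -1.20 (-1.72 to -0.71), and -0.50 with 1 CPM added. Other genes of this list under the minimum went both ways. Without the addition, Colgalt1 stood at 0.32 (0.12 to 0.53) and P4ha2 at 0.31 (0.07 to 0.54), and P4ha1 at -0.25 and Plod2 at -0.30. In elongating spermatids Serpinh1 had 100 and 20 UMIs, 1.86 and 0.593 CPM. These collagen-modifying genes were named after their values were seen. None of the 14 other collagens listed reached the minimum.

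Few other genes of hydroxyproline, proline and glyoxylate metabolism were measured well enough to compare with Hoga1. Of 20 listed genes in the files, 6 besides Hoga1 reached the minimum level, and 0 of the 6 were past 2-fold in either direction, beside a share of 0.136% over all genes tested. They included Grhpr, the reductase that handles glyoxylate, and the lactate dehydrogenase genes Ldha, Ldhb and Ldhc. Their median log2 ratio was 0.12 with 1 CPM added. Prodh2, the dehydrogenase that opens hydroxyproline breakdown, was far under the minimum level, with 27 and 10 UMIs (0.203 and 0.101 CPM). Its log2 ratio was -0.13 with 1 CPM added. Without that addition it was -1.01 with an interval that includes 0 (-2.22 to 0.08). Agxt, the aminotransferase that clears glyoxylate, had 12 and 11 UMIs.

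The genes whose levels over the 7 gates of the control library were most like those of Col9a3 were Agtpbp1 (Pearson r = 0.97), Pole3 (0.95) and Fem1c (0.95), chosen among 5955 genes of at least 20 CPM. For Hoga1 they were Eya4 (0.98), H2-DMa (0.98) and Gfra2 (0.97). In the cKO library r was 0.26, 0.44 and 0.40 for the genes picked for Col9a3, and 0.63, 0.74 and 0.54 for those picked for Hoga1. The genes were picked for a high r in the control library, so a lower r in the other library follows in part from the choice. These are descriptions over 7 gates that share a library, without a p, and in 4 of the 7 gates Col9a3 rests on 0 to 9 UMIs and Hoga1 on 0 to 7. None of the 6 genes had a log2 ratio below -0.39.

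In cKIT+ spermatogonia, a stage before those that hold most UMIs of these genes, chromatin at the 2 genes was described from the deposited region lists, a measurement the choice of genes did not use. No ATAC-seq peak lay within 5000 bases of Col9a3 in any of the 5 lists, and the nearest was 7950 to 8396 bases away. Of 21900 protein-coding genes, 23.4% had no peak within 5000 bases in any list. Hoga1 had a peak across its lower end in control 1, control 2, cKO 2 and cKO 3, with the authors' fold enrichments of 3.64, 4.59, 2.89 and 4.11. The control and cKO values overlap. By fold enrichment these peaks ranked at percentiles 33.5, 69.5, 1.75 and 58.0 of their own lists, so the cKO 2 peak was among the lowest there. Of 27025 genes with a start in the RefSeq promoter table, 34.5% had a peak within 2000 bases of a start in at least 4 of the 5 lists. The list labelled cKO 1 had none at Hoga1, and 5.84% of genes had a peak in every list but that one. Its peak names carry the prefix C2, as do those of control 1, and it was the shortest list, with 14635 peaks against 18883 to 40497 in the other cKO lists. A further peak lay inside Hoga1 in each of those same 4 lists, between 22991 and 23808 bases from its lower end. The cKO 3 list alone had another, 14300 to 14618 bases in, with a fold enrichment of 3.34.

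H3K27me3, the mark that KDM6A removes, was found at both genes in both control lists, over the gene and 2000 bases on either side. That span was chosen after seeing the data. At the lower gene end, the planned measure, only control 2 had a region at either gene. The share of all genes with a region in that narrower window was not computed, so little can be read from this. Control 2 was also the longest H3K27me3 list, with 18494 regions against 11118 to 15368 in the others. Within the wider span a region was found for 20.5% and 23.7% of protein-coding genes in the control lists, and for 14.9% to 21.9% in the cKO lists. At Col9a3, regions lay within the gene in control 1, control 2 and cKO 3, in 3 different places, of which only those of control 1 and cKO 3 shared bases (172). Over 21900 protein-coding genes, 1.9% had regions within 2000 bases in both control lists and exactly 1 cKO list. At Hoga1, regions lay in both control lists and in 0 of the 3 cKO lists, a pattern found in 0.648% of genes. All 5 lists had a region at 12.5% of genes. The reverse pattern, all 3 cKO lists and no control list, was found at 0.0137%, but it asks for 3 lists where the other asks for 2. The region of control 1 lay within the gene, 15571 to 17795 bases from its lower end. Control 2 had one across the lower end, covering all 300 bases of the promoter shown above, and another 6265 to 8966 bases in. None of the control 1 and control 2 regions at Hoga1 shared a base. By summed signal, the regions at both genes ranked between percentiles 17.4 and 45.6 of their own lists. With 2 control and 3 cKO lists, a presence and absence pattern can reach no exact two-sided p under 0.1, and no test was made. By file name, 4 of the 5 libraries had been downsampled and cKO 2 was not. The IgG library had no region at either gene. Within the span it had one at only 3.57% of protein-coding genes, so the absence says little.

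**Figure D5:**
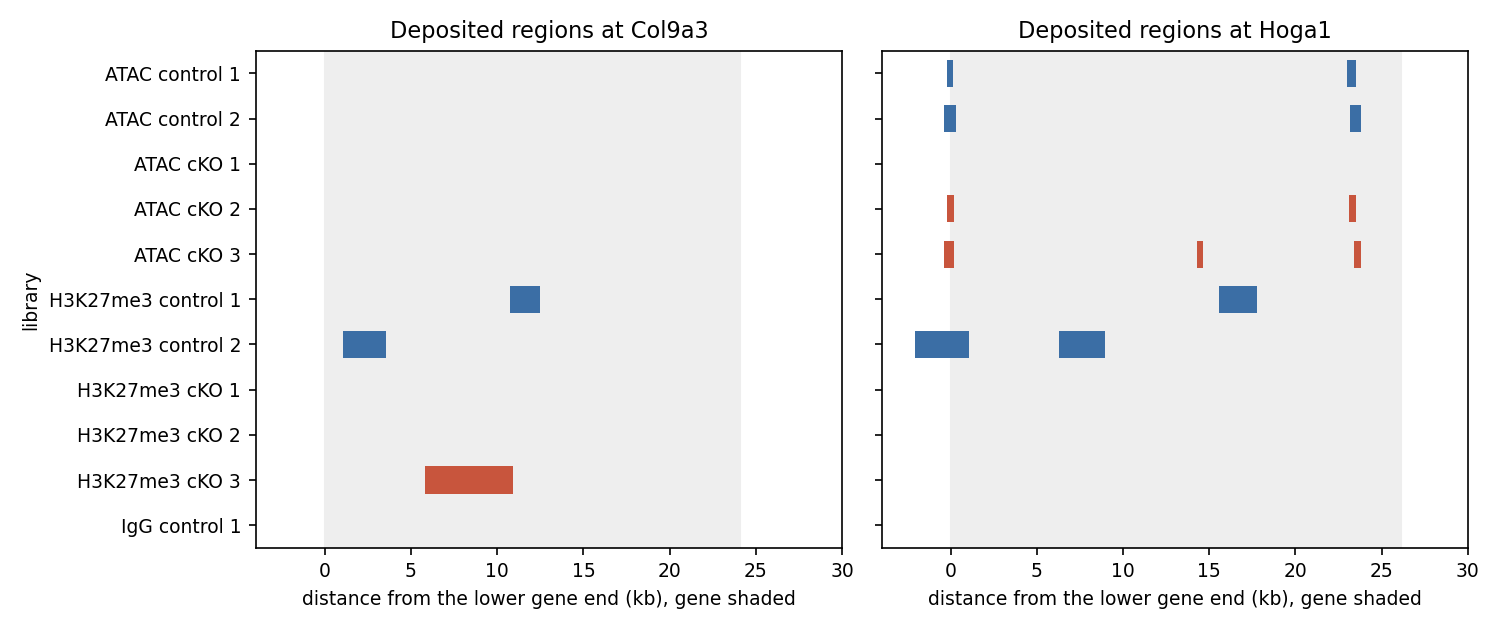
Deposited ATAC-seq peaks and H3K27me3 regions at Col9a3 (left) and Hoga1 (right), 1 row per library, by distance in kb from the lower end of the gene, which is shaded. Control libraries are blue and cKO libraries red, and Hoga1 shows H3K27me3 regions in both control rows and in none of the 3 cKO rows.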

How the data were processed

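Col9a3 and Hoga1 and the gene lists were chosen with earlier results of these data known. The single-cell matrices hold UMI counts per gene and barcode, deposited by the authors without a selection of cells, and made with Cell Ranger 4 per the file headers. The submitters' processing notes name mm10 and Seurat 4.1.0. Per the file headers and layouts, the authors' ATAC-seq lists give a score, a fold enrichment (a ratio) and -log10 p and q per peak, and their CUT&Tag lists give a summed and a highest signal per region. The submitters' processing notes name MACS2 and SEACR. UMIs of barcodes with at least 3000 UMIs were summed per library and divided by their total to give CPM. Barcodes were gated by the highest of 10 marker scores, each the mean of log-scaled marker levels capped at their 90th percentile. Doublets were marked with scanpy 1.11.5 (Scrublet) in 5.25% of control and 6.01% of cKO barcodes, and were left out only as an alternative. A gene was called at 2-fold with 1 CPM added and a mean of at least 5 CPM. With 1 library per genotype no test was run. Named genes are Col9a3 and Hoga1, Kdm6a, list genes past 2-fold, Col9a1 and Col9a2, the 5 genes on each side, and the 3 most alike over gates. Some further list genes are named after their values were seen, as examples. Regions were placed on RefSeq genes of GRCm38.p6, counting 1 shared base as overlap. Bulk RNA-seq was not used here, since its transcript identifiers could not be paired with genes.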

Additional observations from a re-analysis of the deposited data

How the results depend on the processing

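The log2 ratio of Col9a3 stayed between -1.87 and -1.65 under 10 alternatives, all within its counting interval. They were other UMI minimums, median-ratio scaling, CPM without mitochondrial UMIs, a filter on genes and mitochondrial share, doublets left out, equal gate weights, thinning, free RNA subtracted and, chosen after seeing the data, shared barcodes left out. That of Hoga1 stayed between -1.87 and -1.52, and only subtraction of free RNA moved it out of its interval, to -1.87. Ratios per stage stayed within their intervals under a stricter gate margin and a minimum of 5000 UMIs. Genes past 2-fold numbered 14, against 13 with median-ratio scaling and 8 with a minimum of 20 CPM, which neither Col9a3 nor Hoga1 reaches. H3K27me3 lists with a region at the lower gene end numbered 1 for each gene. Over the gene span, an alternative chosen after seeing the data, they numbered 3 for Col9a3 and 2 for Hoga1, and leaving out one library at a time they ranged from 0 to 1 for each, with 0 without control 2. ATAC-seq lists with a peak at the lower end of Hoga1 ranged from 3 to 4. No paired analysis was possible because the single-cell data have 1 library per genotype and no test was run on the region lists. The alternatives for bulk RNA-seq were not run.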

Other observations

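Besides Col9a3 and Hoga1, 11 genes were at least 2-fold lower in the cKO library. Chromosome 13 held 5 of the 13, with 381 genes tested there, and 4 of those 5 are histone genes: Hist1h1a, Hist1h1e, Hist1h1c and Hist1h2aa. Gm13941 lies on chromosome 2, as does Col9a3, and Hoga1 was the only one on chromosome 19. The lowest of all was Clasrp, with 128 CPM in the control and 39.9 CPM in the cKO library, and the only gene 2-fold higher was Map4k1, with 32.8 and 91.8 CPM. Both lie on chromosome 7. These genes were named after their values were seen.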
